A study of Danio rerio with 12 samples.

Results

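Genes that divide the early zebrafish brain into regions were followed in whole embryos at the tailbud stage, after the trim33 gene, here called tif1g, was targeted with a morpholino and after leflunomide. The members are rx3, six3a, six3b, her5, pax2a, en2, gbx2 and egr2b, 8 symbols that run from the eye field to the hindbrain. They were looked up in a table of zebrafish gene names, ignoring case. Of these, 4 symbols matched exactly and gave 5 rows, and the other 4 matched the name without the paralogue letter and gave 5 more, so that 10 of 32520 rows were members. The name table holds 2 rows called six3, 2 called pax2 and 2 called en2, and does not tell which is the a or the b copy. Such a pair is told apart here as the row with the higher count and the row with the lower count, and 1 of the pax2 rows is then not pax2a. The egr2 row is taken as egr2b, because egr2a has a row of its own. All 10 rows passed the filter on low counts, the lower-count en2 row through its libraries with the control morpholino.

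At the end of gastrulation the neural plate is already divided along its length by transcription factors. The anterior plate, protected from Wnt signals, expresses rx3 and six3 genes and forms forebrain and eyes, while Wnt, Fgf and retinoic acid signals favour posterior fates. The midbrain-hindbrain boundary forms where otx genes, in front, meet gbx genes, behind, and is kept by pax2a, engrailed genes, wnt1 and fgf8. The hindbrain behind it is cut into rhombomeres under the control of hox genes and of egr2b, also called krox20.

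All embryos were wild type of the TU strain and were harvested at 10 hours after fertilisation (hpf). The 4 groups were tif1g morpholino in leflunomide, tif1g morpholino in DMSO, control morpholino in leflunomide and control morpholino in DMSO, with 3 libraries each. Every embryo received 1 ng of a morpholino, an antisense oligonucleotide, either one that blocks translation of tif1g or a standard control, and none was left without injection. Leflunomide blocks dihydroorotate dehydrogenase, which works in pyrimidine synthesis. It was given at 7 µM from 5.3 hpf, and the other embryos got the matching amount of DMSO. Each library came from a pool of 109 whole embryos. The design asks how the knockdown changes transcription, how leflunomide does, and whether one changes the effect of the other.

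The libraries held 27574593 to 32088082 counts. Levels are CPM, read counts relative to the TMM-scaled size of each library, and are not divided by gene length, so they are compared within a gene and never between genes. Where levels are summed over a list, the sums are compared between groups only, and the genes with the most counts weigh most in them. The targeted transcript trim33 stood at 417 to 433 CPM in tif1g leflunomide, 373 to 395 in tif1g DMSO, 78.6 to 85.6 in control leflunomide and 71.2 to 80.6 in control DMSO. A morpholino that blocks translation need not lower the RNA, so this level does not measure the knockdown. Of 20 neural plate, 18 epidermal, 16 paraxial mesoderm and 14 endoderm genes, none was without a count in any group. Any read in a group is enough for that, so it does not measure how much of a tissue was present.

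The knockdown lowered rx3, both en2 genes and egr2b, in DMSO and in leflunomide alike. It raised the higher-count six3 gene in leflunomide, and left her5, both pax2 genes, gbx2 and the lower-count six3 gene without a call. In DMSO, 4 of the 10 members were called, all lower, where 32.8% of the 21400 tested genes were called and 17.2% were called lower. In leflunomide, 5 members were called, 1 higher and 4 lower, where 23.8% of all genes were called, 12% higher and 11.8% lower. The lower-count en2 row, among the calls in both, had passed the count filter through its control libraries. Both its calls were lost with no count filter (adjusted p = 0.0679 in DMSO and 0.0729 in leflunomide), and its fall is given as a description only. The median log2 fold change of the 10 rows was -0.32 in DMSO and -0.42 in leflunomide, beside 0.00 and 0.01 over all tested genes. Both pax2 rows are in it, though 1 of them is not pax2a. Without the lower-count pax2 row the middle value is that of gbx2, -0.19 in DMSO and -0.22 in leflunomide. The members were chosen with earlier results of these data known. A call means an adjusted p under 0.05 in edgeR's quasi-likelihood test, adjusted by Benjamini-Hochberg over all tested genes, and all adjusted p-values of genes come from that test unless another is named. Across all 12 libraries, the 6 tif1g libraries lay below the 6 control libraries in rx3, both en2 genes and egr2b, and above them in the higher-count six3 gene. Over all tested genes, 8.92% lay below and 7.79% above without overlap. The same rows are therefore also apart when 3 libraries are taken against 3 in each knockdown comparison, which is no separate result. No further member row was apart there, where 22.0% (DMSO) and 19.9% (leflunomide) of all genes were lower, and 21.7% and 20.2% higher. In whole-embryo samples, fewer cells of a region and less RNA per cell cannot be told apart.

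**Figure D1:**
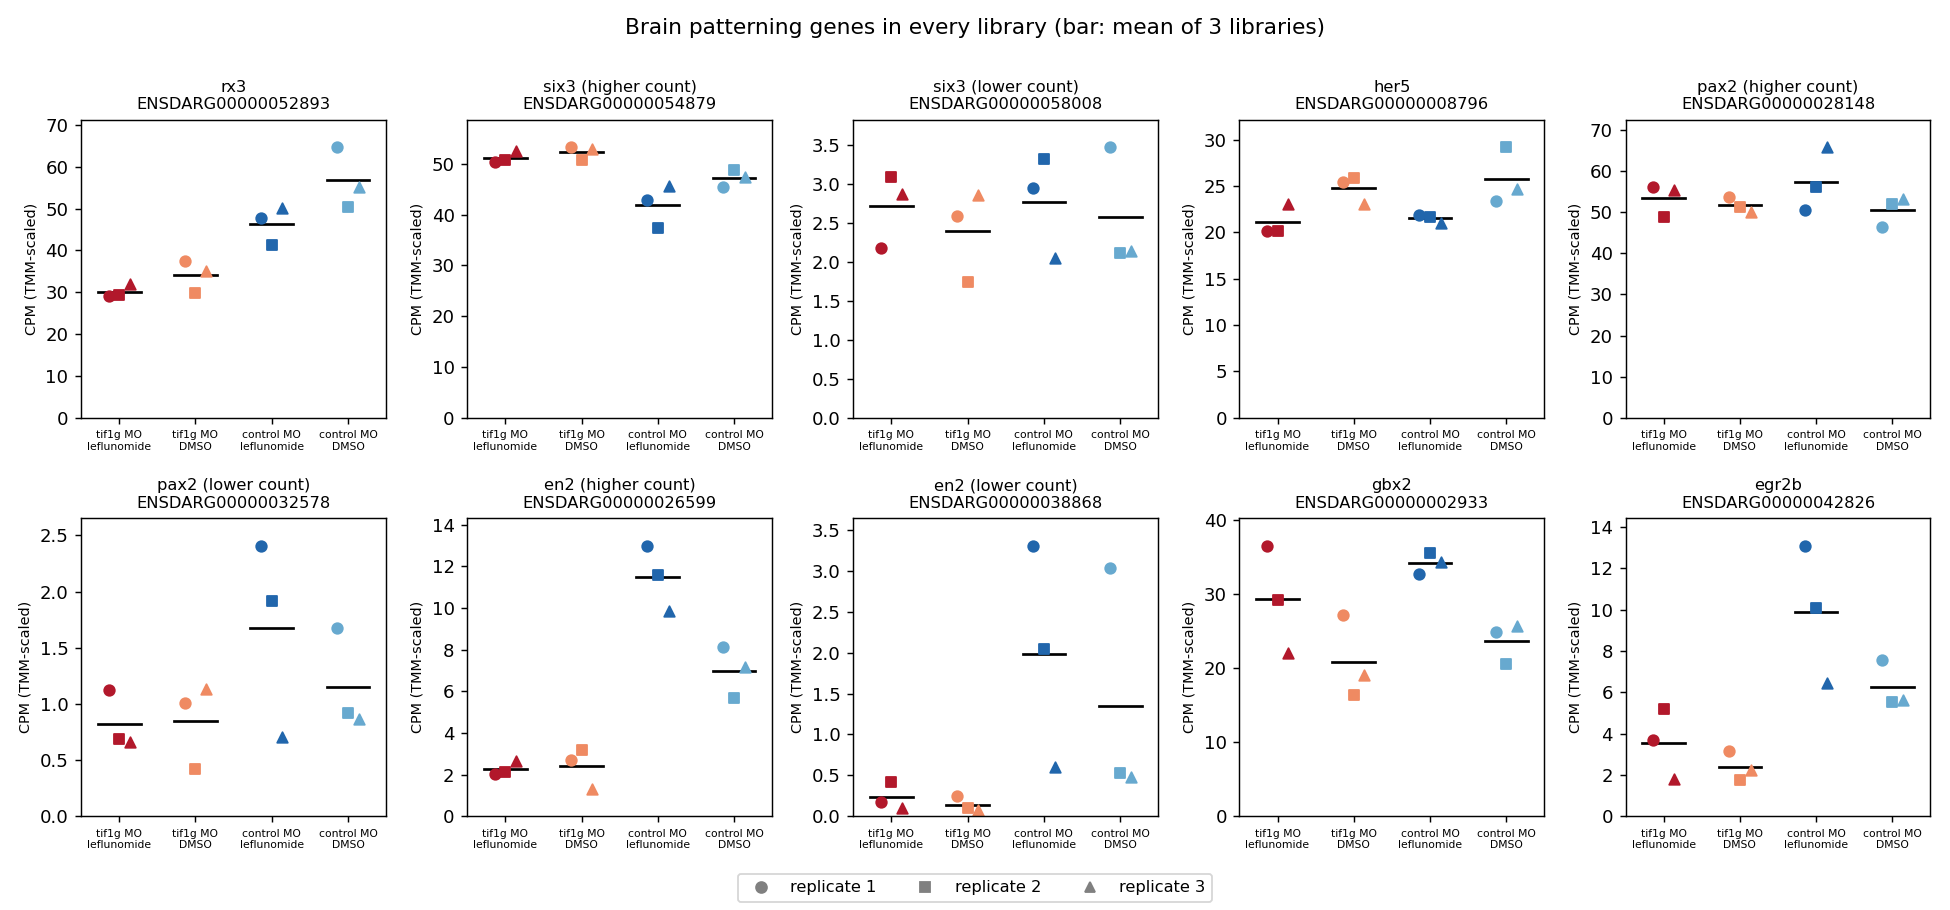
CPM of the 10 member rows in every library, by group, with marker shapes for the replicate number and a bar at the mean of 3 libraries. In rx3, both en2 rows and egr2b the tif1g libraries lie below all control libraries, and in the higher-count six3 row they lie above them.

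The gene rx3 (ENSDARG00000052893) encodes the retinal homeobox factor that specifies the eye field. Its level was 29.1, 29.3 and 31.9 CPM in tif1g leflunomide, 37.5, 29.9 and 35.1 in tif1g DMSO, 47.8, 41.2 and 50.1 in control leflunomide, and 64.7, 50.3 and 55.2 in control DMSO, for replicates 1, 2 and 3. Every tif1g library was below every control library, and the group in DMSO with the control morpholino was highest. The knockdown lowered rx3 1.66-fold in DMSO (log2 fold change -0.73 ± 0.10, SE, 3 libraries a group, adjusted p = 3.63e-05) and 1.54-fold in leflunomide (-0.62 ± 0.10, adjusted p = 0.000272). Both calls held in all 15 alternatives, with adjusted p up to 0.00244 in DMSO and 0.0152 in leflunomide. Leflunomide also lowered rx3 in control embryos, where its 3 libraries did not overlap those in DMSO (-0.29 ± 0.10, adjusted p = 0.0459). That call was lost in 9 of 15 alternatives, with adjusted p of 0.21 without control DMSO replicate 1, 0.0754 without control DMSO replicate 3, 0.0794 without control leflunomide replicate 1 and 0.192 without control leflunomide replicate 2. It was lost as well without replicate number 1, 2 or 3 in both groups (0.263, 0.0672 and 0.0922), with library totals alone (0.23) and with only the groups compared (0.0652). With the replicate block it held (adjusted p = 0.000696). In tif1g embryos the change with leflunomide was -0.18 ± 0.10 (adjusted p = 0.452).

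The six3 genes encode homeobox factors of the anterior forebrain and eye field, known in vertebrates as repressors of Wnt genes there. The higher-count row (ENSDARG00000054879) held 50.4, 50.7 and 52.5 CPM in tif1g leflunomide, 53.3, 50.8 and 52.9 in tif1g DMSO, 42.8, 37.4 and 45.7 in control leflunomide, and 45.4, 48.8 and 47.5 in control DMSO. All tif1g libraries were above all control libraries, in the opposite direction to rx3. The gene rose with the knockdown in leflunomide by 0.29 ± 0.07 (adjusted p = 0.00513), 1.22-fold, a call that did not hold when replicate number 2 was left out (adjusted p = 0.0744). In DMSO the difference was 0.15 ± 0.07 (adjusted p = 0.108), which passed with library totals alone (0.0164). The difference between the knockdown effects in leflunomide and in DMSO was 0.14 ± 0.10 (adjusted p = 0.63). The leflunomide effect on this row in control embryos was -0.17 ± 0.07 (adjusted p = 0.087), and it passed with the replicate block (0.0296) and without control leflunomide replicate 3 (0.0277), with adjusted p up to 0.719 in the other alternatives. In tif1g embryos it was -0.03 ± 0.07 (adjusted p = 0.899). The lower-count row (ENSDARG00000058008) had 50 to 103 counts a library, and its groups overlapped at 2.18 to 3.09 CPM in tif1g leflunomide, 1.74 to 2.86 in tif1g DMSO, 2.05 to 3.32 in control leflunomide and 2.11 to 3.47 in control DMSO. Its knockdown effects were -0.11 ± 0.27 in DMSO and -0.03 ± 0.26 in leflunomide (adjusted p = 0.802 and 0.952), with 95% intervals of -0.63 to 0.41 and -0.54 to 0.48.

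The gene her5 (ENSDARG00000008796) encodes a Hairy-related repressor that holds back neurogenesis at the midbrain-hindbrain boundary. It stood at 20.1, 20.2 and 23.1 CPM in tif1g leflunomide, 25.4, 25.9 and 23.1 in tif1g DMSO, 21.9, 21.7 and 21.0 in control leflunomide, and 23.4, 29.2 and 24.7 in control DMSO. The tif1g and control libraries overlapped, while within control embryos all 3 leflunomide libraries were below those in DMSO. The knockdown effect was -0.06 ± 0.09 in DMSO (adjusted p = 0.691, 95% interval -0.24 to 0.12) and -0.03 ± 0.09 in leflunomide (adjusted p = 0.876, 95% interval -0.21 to 0.16). With library totals alone the sign in DMSO turned, to 0.02. The leflunomide effect in control embryos was -0.26 ± 0.09 (adjusted p = 0.0518), and it passed with the replicate block (0.0161), DESeq2 (0.0356), size factors of DESeq2 in edgeR (0.048) and without control DMSO replicate 1 (0.0276). In tif1g embryos it was -0.23 ± 0.09 (adjusted p = 0.268).

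The pax2 genes encode paired-box factors, and pax2a is among the first genes of the midbrain-hindbrain boundary and is later needed in the kidney. The higher-count row (ENSDARG00000028148) held 56.0, 48.8 and 55.3 CPM in tif1g leflunomide, 53.6, 51.2 and 50.1 in tif1g DMSO, 50.4, 56.0 and 65.8 in control leflunomide, and 46.4, 51.9 and 53.2 in control DMSO. The groups overlapped, and control leflunomide replicate 3 was the highest library. The knockdown effects were 0.03 ± 0.09 in DMSO (adjusted p = 0.814, 95% interval -0.14 to 0.20) and -0.10 ± 0.09 in leflunomide (adjusted p = 0.419, 95% interval -0.27 to 0.06). The lower-count row (ENSDARG00000032578) had only 12 to 72 counts a library, with 0.665 to 1.12 CPM in tif1g leflunomide, 0.417 to 1.13 in tif1g DMSO, 0.707 to 2.41 in control leflunomide and 0.863 to 1.68 in control DMSO. Its knockdown effect in leflunomide was -1.03 ± 0.44 (adjusted p = 0.108), and it passed the threshold with the replicate block (0.0231) and without control leflunomide replicate 3 (0.0221). In DMSO the effect was -0.44 ± 0.46 (adjusted p = 0.503).

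The en2 genes encode engrailed homeobox factors of the midbrain and its boundary with the hindbrain. The higher-count row (ENSDARG00000026599) held 2.04, 2.12 and 2.63 CPM in tif1g leflunomide, 2.69, 3.19 and 1.31 in tif1g DMSO, 13.0, 11.6 and 9.87 in control leflunomide, and 8.11, 5.70 and 7.18 in control DMSO. The tif1g libraries formed 1 low range that leflunomide did not part, while the control libraries in leflunomide were all above those in DMSO. It fell 2.91-fold with the knockdown in DMSO (log2 fold change -1.54 ± 0.24, adjusted p = 0.000109) and 5.08-fold in leflunomide (-2.35 ± 0.24, adjusted p = 1.93e-06). Both calls held in all 15 alternatives, with adjusted p up to 0.00479 in DMSO and 0.000458 in leflunomide. In control embryos leflunomide raised this en2 gene by 0.72 ± 0.22, 1.64-fold (adjusted p = 0.0263), and in tif1g embryos the change was -0.09 ± 0.26 (adjusted p = 0.933). The rise was not called without control DMSO replicate 2 or 3 (adjusted p = 0.108 and 0.0649), without control leflunomide replicate 1 or 2 (0.105 and 0.0765), or without replicate number 1 or 2 (0.121 and 0.196). The test of the difference between the effects gave -0.80 ± 0.34 (95% interval -1.47 to -0.14, unadjusted p = 0.0299, adjusted p = 0.343), so the difference did not pass. Its value was -0.36 without replicate number 2, -0.54 without tif1g DMSO replicate 2 and -1.33 without replicate number 3.

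The lower-count en2 row (ENSDARG00000038868) had 5, 13 and 3 counts in tif1g leflunomide, 7, 3 and 2 in tif1g DMSO, 99, 63 and 17 in control leflunomide, and 90, 15 and 14 in control DMSO. These counts correspond to 0.176, 0.423 and 0.105 CPM in tif1g leflunomide, 0.245, 0.104 and 0.0706 in tif1g DMSO, 3.31, 2.05 and 0.601 in control leflunomide, and 3.03, 0.528 and 0.483 in control DMSO. Every tif1g library was below every control library, and within the control groups the libraries of replicate number 1 stood far above those of number 3. The row fell with the knockdown in DMSO (log2 fold change -3.23 ± 1.00, adjusted p = 0.0286) and in leflunomide (-3.04 ± 0.90, adjusted p = 0.0307). In DMSO the call was lost without control DMSO replicate 1, where the change was -1.82 (adjusted p = 0.105), without tif1g DMSO replicate 1, 2 or 3 (0.0534, 0.106 and 0.097), without replicate number 1 or 2 (0.0565 and 0.11) and with no count filter (0.0679). In leflunomide it was lost without control leflunomide replicate 1 or 2 (0.0884 and 0.0658), without tif1g leflunomide replicate 1 or 3 (0.107 and 0.11), without replicate number 2 (0.114) and with no count filter (0.0729). With the replicate block both calls held (adjusted p = 1.15e-05 in DMSO and 5.28e-06 in leflunomide).

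The gene gbx2 (ENSDARG00000002933) encodes the homeobox factor that marks the hindbrain side of the boundary. Its level was 36.5, 29.2 and 22.0 CPM in tif1g leflunomide, 27.1, 16.3 and 19.0 in tif1g DMSO, 32.7, 35.5 and 34.3 in control leflunomide, and 24.8, 20.5 and 25.7 in control DMSO. The morpholino groups overlapped, and in control embryos the leflunomide libraries were all above the DMSO ones. The knockdown effects were -0.19 ± 0.21 in DMSO (adjusted p = 0.54) and -0.22 ± 0.20 in leflunomide (adjusted p = 0.472), the second of which passed without replicate number 1 (0.0413). The leflunomide effect on gbx2 was 0.53 ± 0.20 in control embryos (adjusted p = 0.0904), and 0.49 ± 0.20 when given to tif1g embryos (adjusted p = 0.321). It was positive in all 3 replicate numbers of each. The value in control embryos passed with DESeq2 (adjusted p = 0.013), with library totals alone (0.0403), with only the groups compared (0.00193) and without replicate number 1 (0.0157).

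The gene egr2b (ENSDARG00000042826) encodes the zinc finger factor of the third and the fifth rhombomere. It stood at 3.69, 5.21 and 1.79 CPM in tif1g leflunomide, 3.18, 1.74 and 2.22 in tif1g DMSO, 13.1, 10.1 and 6.44 in control leflunomide, and 7.54, 5.53 and 5.63 in control DMSO. All tif1g libraries were below all control libraries, although tif1g leflunomide replicate 2, at 5.21 CPM, came close to control DMSO replicate 2, at 5.53. The knockdown lowered egr2b 2.62-fold in DMSO (log2 fold change -1.39 ± 0.38, adjusted p = 0.016) and 2.76-fold in leflunomide (-1.47 ± 0.36, adjusted p = 0.0125). In DMSO the call was lost without control DMSO replicate 1 (adjusted p = 0.0621), without tif1g DMSO replicate 2 or 3 (0.0689 and 0.0547) and without replicate number 1 or 2 (0.057 and 0.078). In leflunomide it was lost without replicate number 1 (adjusted p = 0.0984). With the replicate block both calls held (adjusted p = 0.000382 in DMSO and 0.000166 in leflunomide). The leflunomide effect on egr2b was 0.66 ± 0.35 in control embryos (adjusted p = 0.213), and the replicate block took it past the threshold (0.0436). In tif1g embryos it was 0.58 ± 0.39 (adjusted p = 0.567).

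**Figure D2:**
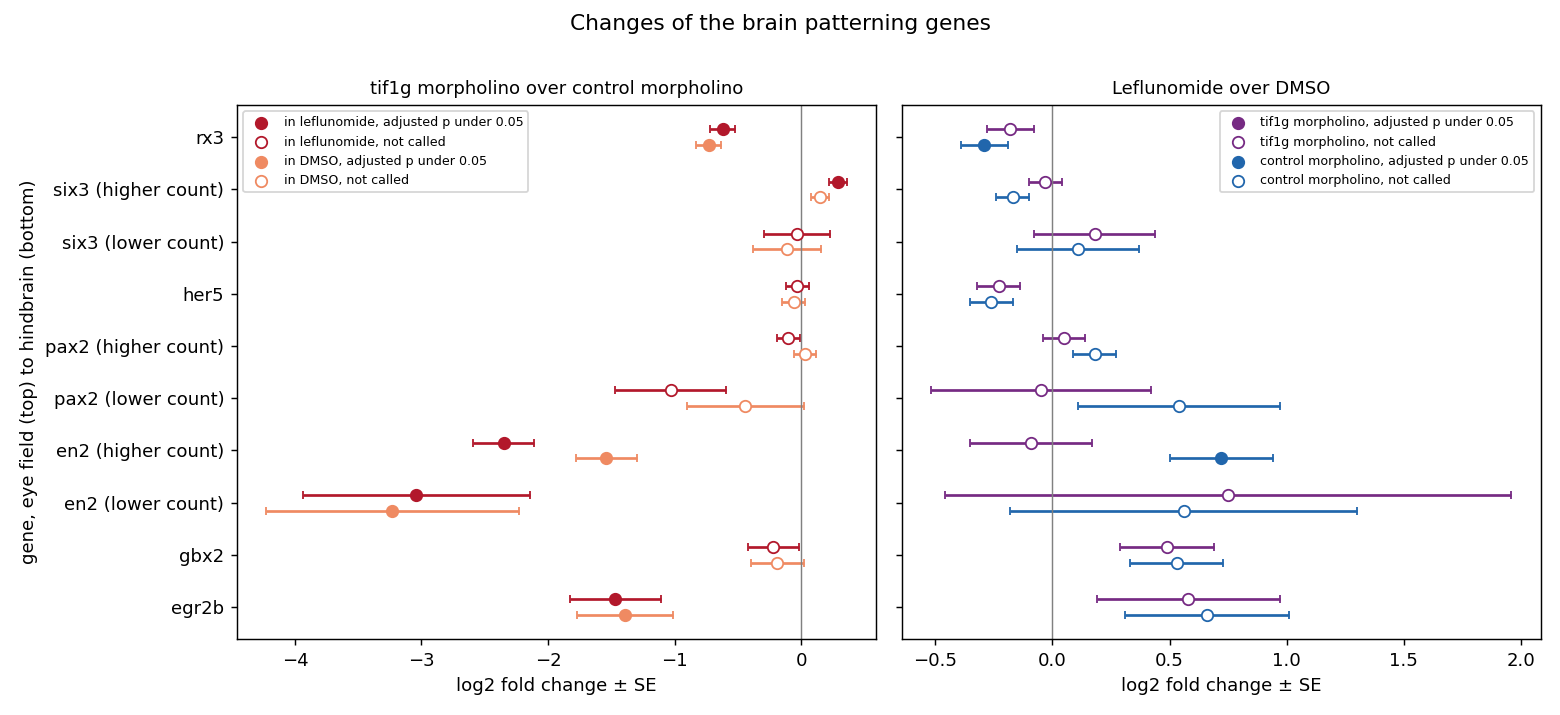
Log2 fold changes of the 10 member rows with their standard errors, tif1g over control morpholino on the left and leflunomide over DMSO on the right, with filled points for an adjusted p under 0.05. The lowest knockdown values are those of the en2 rows and egr2b, and of the leflunomide values only rx3 (-0.29) and the higher-count en2 row (0.72) in control embryos are filled.

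Leflunomide thus gave calls in 2 members in control embryos, where 21.9% of all tested genes were called, with rx3 lower (13.1% of all genes) and the higher-count en2 row higher (8.87%). Without overlap between the 3 libraries a group, rx3 and her5 were lower there (19.2% of all genes), and the higher-count en2 row and gbx2 higher (17.3%). The direction split of all genes in that comparison, 1899 higher and 2796 lower, was 3538 and 1220 with library totals alone, which moved the median of all genes to 0.156 on the log2 scale. The replicate block gave 5 members and DESeq2 4. In tif1g embryos edgeR called 0 members, with and without the replicate block, where 0.617% of all tested genes were called. DESeq2 called 0 of the members to which it gave an adjusted p, and gave none to the lower-count six3, pax2 and en2 rows. No member's libraries were free of overlap there, beside 9.1% of all genes higher and 10.1% lower. Of the 10 members, her5 and gbx2 had an unadjusted p under 0.05 there (0.0227 and 0.0362), as had 2981 of the 21400 tested genes. The knockdown comparisons in DMSO and in leflunomide have no library in common, nor do the leflunomide comparisons. They are still not independent, because all groups share the same fit and libraries of the same replicate number deviated together across groups. Each knockdown comparison shares 1 group with each leflunomide comparison, so their values are given side by side and not as separate evidence.

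The interaction asks whether the knockdown effect differs between leflunomide and DMSO. In the main edgeR fit, with TMM scaling and 1 mean per group, no member and no other gene was called (0.0% of 21400). In that fit 2560 genes had an unadjusted p under 0.05. DESeq2 called 278 genes and edgeR with the replicate block 1067, with 0 members among them in each case. DESeq2 gave no adjusted p for the lower-count six3, pax2 and en2 rows, the higher-count en2 row and egr2b, so its count leaves these out. Among the members only the higher-count en2 row had an unadjusted p under 0.05. For rx3 the difference was 0.11 ± 0.14 (95% interval -0.17 to 0.39) and for egr2b -0.08 ± 0.53 (95% interval -1.11 to 0.95).

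Set against control embryos in DMSO, embryos with both the knockdown and leflunomide had 3 members called, all lower, where 36.0% of all tested genes were called and 18.7% were called lower. These were rx3 (-0.91 ± 0.10, adjusted p = 3.09e-06), the higher-count en2 row (-1.63 ± 0.24, adjusted p = 5.35e-05) and her5 (-0.29 ± 0.09, adjusted p = 0.0213). The her5 call was lost without control DMSO replicate 2 (adjusted p = 0.136), without tif1g leflunomide replicate 1 or 2 (0.0832 and 0.081), without replicate number 1 or 2 (0.0563 and 0.323) and with library totals alone (0.183). The lower-count en2 row was at -2.49 ± 0.91 (adjusted p = 0.0549) and egr2b at -0.80 ± 0.37 (adjusted p = 0.114), and both passed with the replicate block (0.000241 and 0.0115), which then gave 5 members. The en2 value was -1.08 without control DMSO replicate 1 and -0.91 without replicate number 1 (adjusted p = 0.298 and 0.404), and -3.61 without replicate number 2. The egr2b value was -0.49 without tif1g leflunomide replicate 3 (adjusted p = 0.247) and -1.27 without replicate number 2. Leaving out 1 library took the en2 row past the threshold without control DMSO replicate 2 or 3 (0.0361 and 0.0311), as did DESeq2 (0.028) and leaving out replicate number 3 (0.0499), and egr2b without tif1g leflunomide replicate 2 (-1.19, adjusted p = 0.0293). The libraries of rx3, her5, both en2 rows and egr2b were lower without overlap (23.3% of all genes), and those of the higher-count six3 row higher (22.9%). With library totals alone the split of all genes was 5322 higher and 2644 lower, in place of 3694 and 4003, and the median of all genes moved to 0.127.

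The members also varied with the replicate number. Relative to its group's mean log2 level, egr2b was above it in replicate 1 of all 4 groups, by 0.35 on average, and below it in replicate 3 of all 4 groups (mean deviation -0.40). The lower-count en2 row deviated by 0.83 in replicate 1, above the group mean in 3 of 4 groups, and by -0.91 in replicate 3, below it in all 4. The lower-count pax2 row was above its group mean in replicate 1 of all 4 groups (mean deviation 0.53). The higher-count six3, her5 and higher-count pax2 rows stayed within 0.07 of their group means when averaged over the groups by number.

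**Figure D3:**
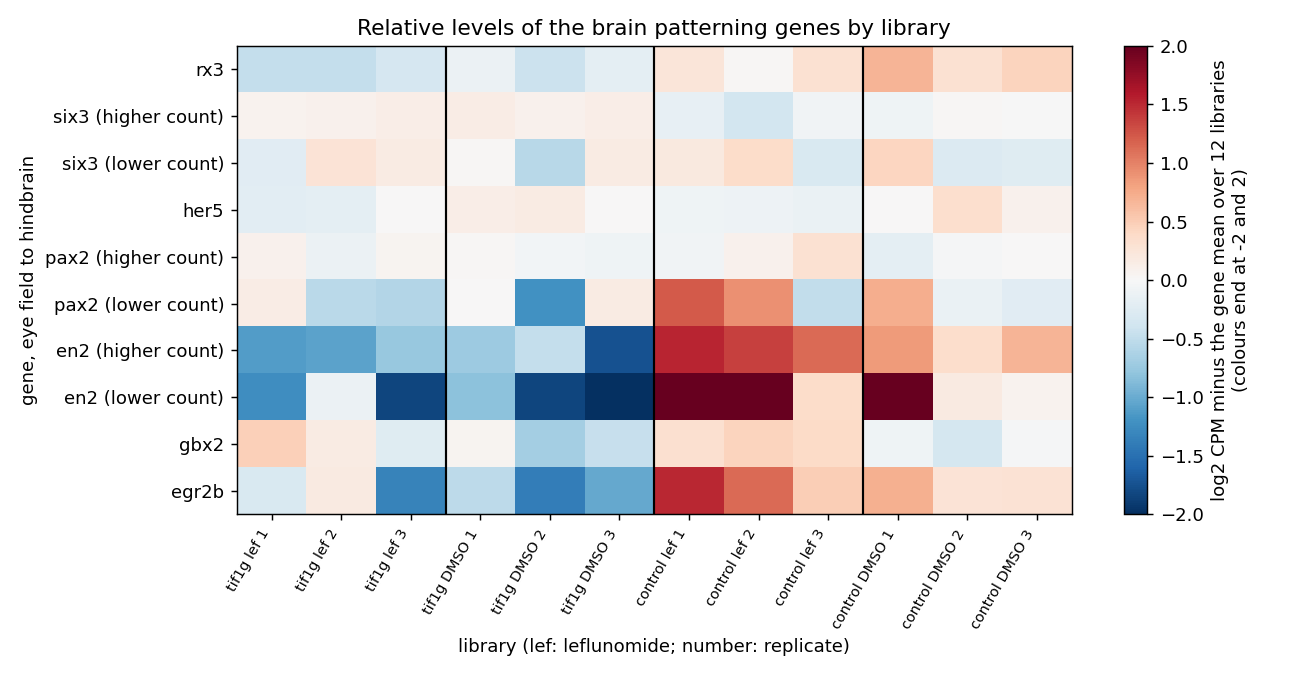
Log2 CPM of the 10 member rows minus each row's mean over the 12 libraries, with groups parted by lines and colours ending at -2 and 2. The en2 rows and egr2b are blue in most tif1g libraries and red in most control libraries. In control DMSO replicates 2 and 3 the lower-count en2 row (0.18 and 0.07) and egr2b (0.27 and 0.29) are near white. The higher-count six3 row is faintly red in tif1g and faintly blue or white in most control libraries.

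Other genes of each region moved in both directions. With the knockdown, 15.6% of all tested genes were called higher and 17.2% lower in DMSO, and 12% and 11.8% in leflunomide. The counts of the region lists were not tested against these shares. The forebrain and eye field list had 21 tested genes, of which 3 rose and 2 fell with the knockdown in DMSO, and 2 rose and 4 fell in leflunomide. The forebrain and eye gene pax6 (ENSDARG00000045936) rose in both arms (0.43 ± 0.06 in DMSO, adjusted p = 1.83e-05, and 0.26 ± 0.06 in leflunomide, adjusted p = 0.00266), and otx1, of the fore- and midbrain, rose too (0.54 ± 0.09 in DMSO, adjusted p = 0.000294, and 0.30 ± 0.09 in leflunomide, adjusted p = 0.0244). The pax6 call in leflunomide was lost in 1 alternative (adjusted p = 0.0813 without replicate number 3), and the otx1 call there without control leflunomide replicate 1 or 2, tif1g leflunomide replicate 3 or replicate number 3 (adjusted p up to 0.14 over all alternatives). A second row named pax6 (ENSDARG00000103379) went the other way, at -0.45 ± 0.17 in DMSO (adjusted p = 0.0541) and -0.49 ± 0.17 in leflunomide (adjusted p = 0.0416). Without control leflunomide replicate 1 or 2, tif1g leflunomide replicate 1 or 3, or any 1 replicate number, its call in leflunomide was lost, as with only the groups compared (adjusted p up to 0.237 over all alternatives). In DMSO this row passed with the replicate block (0.00388), DESeq2 and only the groups compared. It passed there also without control DMSO replicate 3 or replicate number 3. The gene sfrp5, of a secreted Wnt inhibitor, fell in both arms (-0.70 ± 0.17 in DMSO, adjusted p = 0.00453, and -0.69 ± 0.17 in leflunomide, adjusted p = 0.00665). Its calls were lost without replicate number 2 in DMSO and without number 2 or 3 in leflunomide (adjusted p up to 0.0797 and 0.0661 over all alternatives). The homeobox gene barhl2 fell in leflunomide (-0.86 ± 0.22, adjusted p = 0.00745), a call lost without replicate number 2 or 3 (adjusted p up to 0.0675 over all alternatives), and was at -0.44 ± 0.22 in DMSO (adjusted p = 0.13). The eye gene mab21l2, chosen after its values were seen, fell in DMSO (-1.18 ± 0.34, adjusted p = 0.0204) and in leflunomide (-1.01 ± 0.33, adjusted p = 0.0488). Each mab21l2 call was lost without any 1 of the 3 tif1g libraries and without control replicate 1, and the call in leflunomide also without control leflunomide replicate 2 (adjusted p up to 0.1 in DMSO and 0.152 in leflunomide over all alternatives). With the replicate block both mab21l2 calls held (adjusted p = 6.81e-06 in DMSO and 4.16e-05 in leflunomide). The midbrain and boundary list had 29 tested genes, of which 5 rose and 7 fell in DMSO, and 4 rose and 5 fell in leflunomide. In it the homeobox gene barhl1a fell (-2.13 ± 0.22 in DMSO, adjusted p = 7.08e-07, and -1.27 ± 0.21 in leflunomide, adjusted p = 0.000194), while the Fgf feedback gene spry1 rose by 0.62 ± 0.10 and 0.50 ± 0.10 (adjusted p = 0.000108 and 0.00102). The rest of those called higher were spry2, spry4 and il17rd in both arms and wnt8b in DMSO. A row named irx1 (ENSDARG00000056594) fell (-0.45 ± 0.06 in DMSO, adjusted p = 7.64e-06, and -0.22 ± 0.06 in leflunomide, adjusted p = 0.00708), and the second irx1 row was called in neither arm. Also called lower were wnt10b, irx7 and an lmx1b row in both arms, and fgf8 and cnpy1 in DMSO. The hindbrain list had 34 tested genes, of which 6 rose and 7 fell in DMSO, and 4 rose and 6 fell in leflunomide. Medians of the 3 lists ran from -0.13 to 0.11 over both knockdown comparisons, beside 0.00 and 0.01 for all tested genes.

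Within the hindbrain list the hox genes did not move as a block. The gene hoxb1a (ENSDARG00000008174), which specifies the fourth rhombomere, fell in DMSO (-1.01 ± 0.13, adjusted p = 1.4e-05), with 7.57 CPM in tif1g and 15.3 in control embryos, and in leflunomide (-0.49 ± 0.13, adjusted p = 0.012). Its call in leflunomide was lost without tif1g leflunomide replicate 1 or replicate number 1 or 3 (adjusted p up to 0.119 over all alternatives). The gene hoxa2b, of the anterior rhombomeres, fell in leflunomide (-1.35 ± 0.25, adjusted p = 0.00074), with 1.74 CPM in tif1g and 4.42 in control embryos, and in DMSO (-1.18 ± 0.26, adjusted p = 0.00198), with 1.43 CPM in tif1g and 3.25 in control embryos. The gene hoxb2 rose by 0.88 ± 0.14 (adjusted p = 8.83e-05) and hoxb3 by 0.41 ± 0.07 (adjusted p = 0.000101) with the knockdown in DMSO, and in leflunomide they were at 0.25 ± 0.13 and 0.18 ± 0.07 (adjusted p = 0.205 and 0.0515). Leflunomide in control embryos raised 10 of the 34 hindbrain genes and lowered 1 (median 0.23, beside 0.02 for all genes), among them hoxb2 (0.72 ± 0.14), hoxb3 (0.37 ± 0.07) and hoxb4 (0.57 ± 0.12). Over all tested genes in that comparison, 8.87% were called higher and 13.1% lower, a split that turned with library totals alone. The forebrain list had 2 higher and 1 lower there, and the midbrain list 2 and 2.

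**Figure D4:**
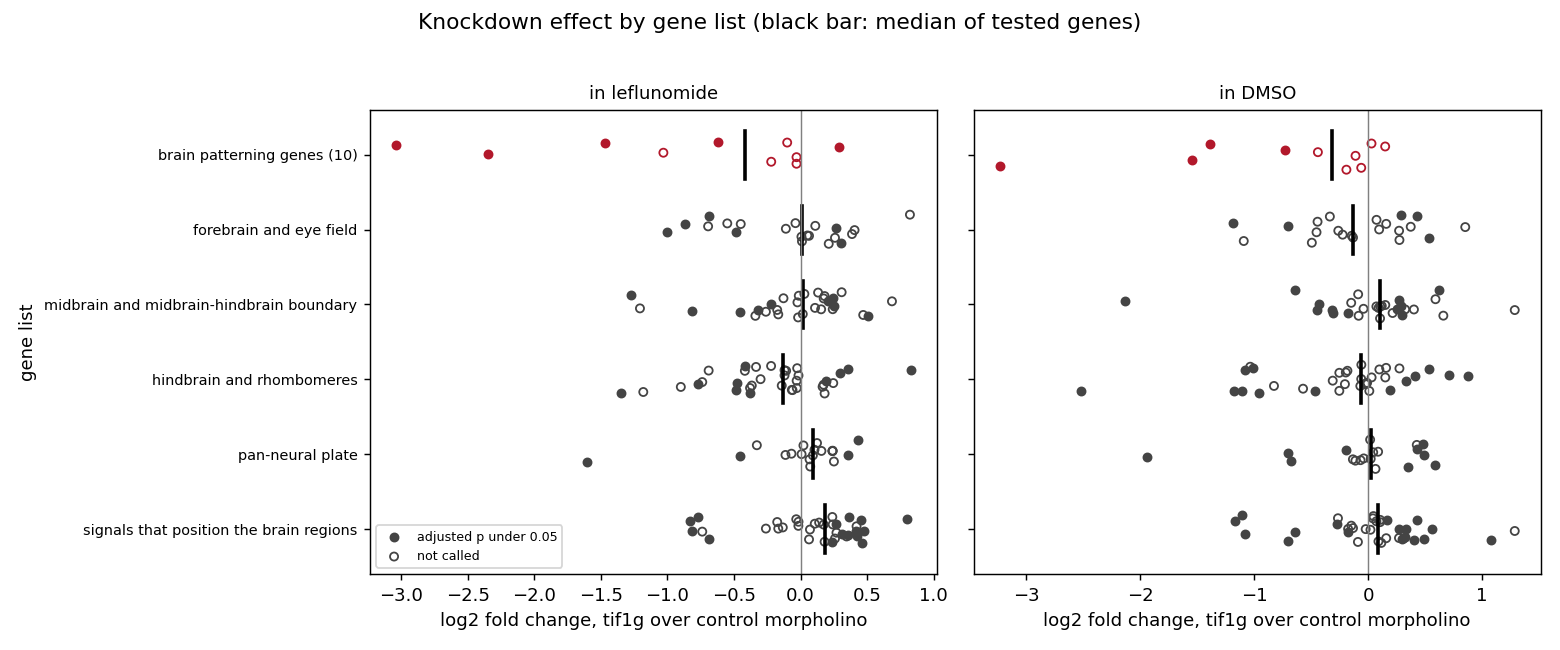
Log2 fold changes of the knockdown, in leflunomide on the left and in DMSO on the right, for the 10 member rows and the tested genes of 5 lists without the members, with a black bar at each median. The lists of regions and signals lie on both sides of 0, and the member rows reach further down than the lists, to -3.04 in leflunomide and -3.23 in DMSO.

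A few close relatives and partners of the members, chosen after their values were seen, are set beside them. The paralogue gbx1, which in zebrafish is expressed ahead of gbx2 in the hindbrain, rose with the knockdown in leflunomide (0.83 ± 0.15, adjusted p = 0.00067) and in DMSO (0.71 ± 0.14, adjusted p = 0.00137), and no alternative lost either call. Its level was 22.4 ± 4.51 CPM in tif1g and 12.6 ± 1.87 in control embryos in leflunomide, and 26.0 ± 2.26 in tif1g and 15.9 ± 2.42 in control embryos in DMSO (SD, n = 3). The her5 relative her11 was at -0.09 ± 0.14 in DMSO and -0.02 ± 0.14 in leflunomide (adjusted p = 0.684 and 0.949). The boundary ligand gene wnt1 was at 0.07 ± 0.11 and 0.17 ± 0.11 (adjusted p = 0.651 and 0.271). The midbrain factor gene otx2 was at 0.15 ± 0.07 in DMSO and 0.16 ± 0.07 in leflunomide (adjusted p = 0.0857 and 0.098), and passed with the replicate block (0.0264 and 0.0303). In DMSO otx2 passed as well with library totals alone and without control DMSO replicate 2. The boundary gene wnt10b fell in DMSO (-0.64 ± 0.19, adjusted p = 0.0138) and in leflunomide (-0.81 ± 0.19, adjusted p = 0.00428). Its call was lost in DMSO without control DMSO replicate 1, tif1g DMSO replicate 2 or replicate number 1 or 3 (adjusted p up to 0.107 over all alternatives), and in leflunomide without number 3 (0.0786). One of the rows named lmx1b (ENSDARG00000068365), of a LIM homeobox factor of the boundary, fell too (-0.31 ± 0.11 in DMSO, adjusted p = 0.0326, and -0.46 ± 0.11 in leflunomide, adjusted p = 0.00444). The call in leflunomide held in all alternatives, and that in DMSO was lost without control DMSO replicate 1 or 3 and without any 1 tif1g DMSO library (adjusted p up to 0.222 over all alternatives). The other lmx1b row (ENSDARG00000104815) was at 0.12 ± 0.39 in DMSO and -0.34 ± 0.37 in leflunomide (adjusted p = 0.85 and 0.566). The main row of the boundary ligand gene fgf8 (ENSDARG00000003399) was at -0.18 ± 0.06 in DMSO, a call (adjusted p = 0.0286) lost without control DMSO replicate 1 or 2 or tif1g DMSO replicate 1 or 2 (adjusted p up to 0.199 over all alternatives), and at -0.17 ± 0.06 in leflunomide (adjusted p = 0.0513). The homeobox gene irx7 fell in both arms (-0.31 ± 0.10 in DMSO, adjusted p = 0.0236, and -0.32 ± 0.10 in leflunomide, adjusted p = 0.0281). Both irx7 calls depended on single libraries, lost in DMSO without replicate 1 or 2 of either group, and in leflunomide without control replicate 2 or 3 or tif1g replicate 1 or 2 (adjusted p up to 0.194 and 0.221 over all alternatives). With the replicate block both irx7 calls held (adjusted p = 4.28e-05 in DMSO and 6.22e-05 in leflunomide). The paralogue egr2a, with 0.291 ± 0.143 CPM in tif1g DMSO and 0.521 ± 0.338 in control DMSO, was at -0.83 ± 0.59 (adjusted p = 0.309). In leflunomide egr2a averaged 0.357 CPM in tif1g and 0.318 in control embryos, at 0.17 ± 0.61 (adjusted p = 0.882). Of the other partners looked at, en1b, pax8 and mafb were called in neither arm, though mafb passed in DMSO with the replicate block (-1.03 ± 0.49, adjusted p = 0.15, and 0.0298 with the block). The hindbrain gene hoxb1b rose in leflunomide (0.36 ± 0.09, adjusted p = 0.00972), a call lost without replicate number 1 (0.0515), and was at 0.16 ± 0.09 in DMSO (adjusted p = 0.203), where it passed with the block (0.0304).

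Among genes that mark the embryo's stage, those of the end of gastrulation were called lower more often than higher, and early gastrula genes the reverse. These lists, like the others, were chosen with earlier results of these data known. Of 30 tested genes of the end of gastrulation, 1 rose and 12 fell with the knockdown in DMSO (median -0.30), and 2 rose and 10 fell in leflunomide (median -0.23). Of 23 early gastrula genes, 6 rose and 1 fell in DMSO (median 0.22), and 12 rose and 1 fell in leflunomide (median 0.28). Not called in DMSO were 17 of the end of gastrulation genes and 16 of the early gastrula genes, and in leflunomide 18 and 10. Over all tested genes, 15.6% were called higher and 17.2% lower in DMSO, and 12% and 11.8% in leflunomide. The summed level of the end of gastrulation list was 897 to 939 CPM in tif1g leflunomide and 992 to 1060 in control leflunomide, and 856 to 877 in tif1g DMSO and 1000 to 1070 in control DMSO. For the early gastrula list the sums in DMSO overlapped, at 1660 to 1830 CPM in tif1g and 1510 to 1720 in control embryos. In leflunomide its sums were 1560 to 1740 CPM in tif1g and 1290 to 1500 in control embryos. Of 15 tested paraxial mesoderm genes, 0 rose and 4 fell in DMSO, and 1 rose and 2 fell in leflunomide, at summed levels of 1250 to 1300 CPM in tif1g DMSO and 1390 to 1430 in control DMSO, and of 1220 to 1300 CPM in tif1g leflunomide and 1210 to 1310 in control leflunomide. The summed neural plate list ran from 2320 to 2410 CPM in tif1g DMSO and from 2280 to 2390 in control DMSO, with 5 of 19 tested genes higher and 4 lower. In leflunomide the neural plate sums did not overlap, at 2270 to 2340 CPM in tif1g and 2150 to 2230 in control embryos, with 2 genes higher and 2 lower. Of 18 epidermal genes, 3 rose and 2 fell in DMSO, and 5 rose and 1 fell in leflunomide. Their summed level was 13300 to 13800 CPM in tif1g DMSO, below the 14700 to 15900 in control DMSO, and 13700 CPM in tif1g leflunomide, above the 12900 to 13300 in control leflunomide. Of 13 tested endoderm genes, 2 rose and 2 fell in DMSO, and 6 rose and 1 fell in leflunomide, at sums of 639 to 714 CPM in tif1g leflunomide and 538 to 609 in control leflunomide, while those in DMSO overlapped. Of 11 tested intermediate mesoderm genes, 1 rose and 3 fell in DMSO, and 1 rose and 1 fell in leflunomide. Of 11 tested genes of the prechordal plate and hatching gland, 2 rose and 4 fell in DMSO, and 3 rose and 1 fell in leflunomide. The part of stage and of other tissues in the fall of rx3, en2 and egr2b was not tested.

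Named genes with profiles most like those of the members over the 12 libraries were found by the root mean square difference of mean-centred log2 levels among 12309 genes. For rx3 these were rpl3, ctnnbl1 and rbm12bb, with differences of 0.096 to 0.102 beside a spread of rx3 itself of 0.378. For the higher-count en2 row they were npr2, crim1 and crb1 (0.28 to 0.361, beside 1.065), and for the lower-count en2 row smyhc1, etsrp and sox10 (0.328 to 0.739, beside 1.657). For egr2b they were grin2da, f2rl3 and gprc5b (0.272 to 0.309, beside 0.897), and for the higher-count six3 row dact1, cep57 and mrs2 (0.042 to 0.055, beside 0.143). The nearest genes were dr1, ebna1bp2 and fxr1 for her5 (0.069 to 0.075, beside 0.153), and meis2, st8sia6 and mrtfbb for gbx2 (0.166 to 0.171, beside 0.362). The libraries are the same throughout, so a like profile is a description of these 12 libraries.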

How the data were processed

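RNA of whole embryos, 3 pooled samples in each of 4 groups, was measured with directional libraries depleted of ribosomal RNA. The authors deposited whole-number read counts for each gene, not normalized. Per the submitters' processing notes, FastQC, cutadapt, TopHat2 2.0.11, HTSeq and Cufflinks 2.2.1 were used with genome build GRCz11. The HTSeq strand setting and the release of the annotation were not given in the sources used here. Reads of a gene and an antisense partner may not be told apart, and reads shared by paralogues may be split. No genome sequence was used here.

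Genes were kept with filterByExpr, which left 21400 of the 30339 genes that had counts. Libraries were scaled by TMM and tested in the robust quasi-likelihood model of edgeR 4.0.16 in R 4.3.3, with 1 mean per group over 12 libraries and Benjamini-Hochberg adjustment. Standard errors come from the F statistic. Alternatives were DESeq2 1.42.0, its size factors in edgeR (RLE), library totals alone, no count filter, only the groups compared, a replicate block, and leaving out each library or replicate number. On simulated counts the fit recovered most 2-fold changes and a lower share of the smaller ones, with false calls somewhat above the nominal share. The changes were placed only in genes with higher counts, and no replicate effect was simulated. The test therefore does not cover rows with as few counts as the lower-count pax2 and en2 rows. The limits for accepting that test were loosened after its first result. Named genes are all members, the list genes with the smallest p (up to 4 in the knockdown in DMSO, up to 3 in each of 3 other comparisons) and the 3 genes most like each member. The members and lists were chosen with earlier results of these data known.

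Samples with the same replicate number deviated together in all 18 pairs of libraries from different groups (r = 0.274 to 0.499 over 14766 genes). The numbers therefore pair the samples. The 36 pairs with different numbers were at -0.345 to -0.03. Deviations from a group mean cancel within the group, so these negative values follow from the positive ones and are no separate observation. The main fit does not use this pairing, and the replicate block does. The series description says that each clutch was divided between treatments, but not whether a number marks a clutch. All p-values measure the spread between pooled samples, and those of the replicate block the spread that is left after the replicate numbers are fitted. Replicates differed beyond sampling noise (chi-square per degree of freedom 7.09 to 15).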

Additional observations from a re-analysis of the deposited data

How the results depend on the processing

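Calls of rx3 and the higher-count en2 row after the knockdown held in all 15 alternatives of each comparison. The calls of the lower-count en2 row, egr2b and the higher-count six3 row depended on single libraries or numbers, as given beside them. The lower-count six3, pax2 and en2 rows had few counts a library. The cause of each change was not tested.

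With the replicate block, the members called were 5 for leflunomide in control embryos and 5 for the knockdown with leflunomide against control DMSO, and the genes called were 1518 for leflunomide in tif1g embryos and 1067 for the interaction. Each member call of the main fit held with the block, and the member calls that the block added stand beside their values. DESeq2 called 4 members for leflunomide in control embryos, 539 genes for leflunomide in tif1g embryos and 278 for the interaction. Library totals alone gave 66 genes for leflunomide in tif1g embryos and 3 for the interaction, only the groups compared gave 40 for the first, and no count filter 1 for the second. Library totals alone turned the sign of her5 in the knockdown in DMSO (0.02) and in the interaction (-0.06), of the higher-count six3 row with leflunomide in tif1g embryos (0.01) and of the lower-count six3 row in the interaction (-0.01). The split of the knockdown in DMSO, 3330 higher and 3682 lower, became 4306 and 2888 with it.

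The next ranges are counts, or log2 fold changes that changed sign, when 1 library or number was left out. In the knockdown in DMSO they ran, for members called from 2 to 4, the lower-count six3 row from -0.37 to 0.17, her5 from -0.13 to 0.04 and the higher-count pax2 row from -0.05 to 0.09. In the knockdown in leflunomide they ran, for genes called from 3006 to 4287, members called from 3 to 6, the lower-count six3 row from -0.25 to 0.13, her5 from -0.11 to 0.01 and the higher-count pax2 row from -0.24 to 0.00. With leflunomide in control embryos they ran, for genes called from 2114 to 4217, members called from 0 to 3, the lower-count six3 row from -0.17 to 0.38 and the lower-count en2 row from -0.02 to 1.97. With leflunomide in tif1g embryos they ran, for genes called from 0 to 27, the lower-count six3 row from -0.11 to 0.37, the lower-count pax2 row from -0.38 to 0.33, the higher-count en2 row from -0.50 to 0.22 and the lower-count en2 row from -0.17 to 1.56. In the interaction they ran, for the lower-count six3 row from -0.20 to 0.23, her5 from -0.08 to 0.14, the lower-count en2 row from -1.22 to 0.85, gbx2 from -0.23 to 0.20 and egr2b from -0.55 to 0.24. In the knockdown with leflunomide against control DMSO they ran, for the lower-count six3 row from -0.15 to 0.49 and the higher-count pax2 row from -0.02 to 0.16.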
